A study of Mus musculus with 24 samples.

Results

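Open chromatin of the early lower jaw was set against that of limb cartilage in mouse embryos, using 5 ATAC-seq libraries of the 24 samples of the series. ATAC-seq inserts adapters into accessible DNA, so a peak marks an open stretch of chromatin. The 2 jaw libraries came from E12.5 mandibular processes, the facial swellings that form the lower jaw, and the 3 limb libraries (FL) came from E14.5 forelimb cartilage. All embryos were wild-type C57BL/6, without an allele or a treatment in either group, and each library was made from 50000 cells. The mandibular processes were dissected whole and dissociated, so all their cell types could enter, whereas the connective tissue around the limb cartilage was taken off first. For the jaw libraries the titles and the dissection protocol give E12.5 and ATAC-seq, while a description line gives E14.5 and Hi-C and other labels name Meckel's cartilage; titles and protocol were followed. Nothing in the labels ties the replicates to separate embryos, so p-values measure only the spread between these libraries, which may be technical. Stage, tissue and dissection differ together between the groups and cannot be told apart. The 3 E14.5 Meckel's cartilage (MC) libraries serve below only as a readout, and comparisons of MC and of E12.5 mandible with FL share the FL lists.

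The 2 E12.5 lists did not resemble each other. From every list the 47152 peaks with the highest authors' score were used, which is the length of the shortest list of the comparison. E12.5 replicate 1 then covered 67.3 Mb with a median peak width of 1166 bp, while E12.5 replicate 2 covered 38.9 Mb with 692 bp. The FL lists covered 37.1, 42.5 and 43.4 Mb with median widths of 657 to 779 bp. Replicate 1 also held 9.56% of its peaks on chromosome 11 and 0.846% on X, against 5.64% to 5.99% and 1.73% to 2.17% in the other 4 lists. Whether the library of replicate 1 is what its label says was not tested. Every value from both E12.5 lists or from replicate 1 rests on it, so results are given for both lists and for each one alone.

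Jaw and limb skeletons are built by cells of different origin. Lower jaw cartilage comes from cranial neural crest that expresses no Hox gene, and its parts are specified by endothelin signalling through Dlx5 and Dlx6 and by factors such as Hand2, Gsc and Pitx1. Limb cartilage comes from lateral plate mesoderm, in which posterior Hox genes of the A and D clusters and T-box genes set position. Both tissues then use Sox9 with Sox5 and Sox6 to turn on the cartilage matrix genes. At E12.5 the jaw mesenchyme is only beginning to condense, while forelimb cartilage at E14.5 is a differentiated tissue.

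The starts of a few genes had peaks in all lists of one group and none of the other. Windows of 300 bases around gene starts (250 before and 50 after; RefSeq, GRCm38.p6, the assembly of mm10) were available for 17251 genes, in 21020 windows. Of these, 9754 had a peak in every list, 85 (0.404%) had one in both E12.5 lists and no FL list, and 102 (0.485%) had one in every FL list and no E12.5 list. Among genes of the lists used below and genes of smallest p, the windows with E12.5 peaks only were those of Nkx2-3, Emx1, Glp1r, Noxa1 and Xkr7. The ones with FL peaks only were those of Hoxa3, Hoxd10, Foxf2 and Sox6. The 250 bases before the start are shown 5′ to 3′ on the gene's strand for 3 of each kind, with CG dinucleotides in capitals. They show the CG-rich starts on both sides and the one start, inside Sox6, that is nearly free of CG.
Nkx2-3 (E12.5 only; chr19:43612075-43612324, plus strand): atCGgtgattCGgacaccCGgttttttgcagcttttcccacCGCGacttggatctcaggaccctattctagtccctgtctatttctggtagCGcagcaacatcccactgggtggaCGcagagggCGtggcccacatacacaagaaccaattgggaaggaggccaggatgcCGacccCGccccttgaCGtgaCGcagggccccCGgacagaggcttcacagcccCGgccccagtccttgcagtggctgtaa
Emx1 (E12.5 only; chr6:85187681-85187930, plus strand): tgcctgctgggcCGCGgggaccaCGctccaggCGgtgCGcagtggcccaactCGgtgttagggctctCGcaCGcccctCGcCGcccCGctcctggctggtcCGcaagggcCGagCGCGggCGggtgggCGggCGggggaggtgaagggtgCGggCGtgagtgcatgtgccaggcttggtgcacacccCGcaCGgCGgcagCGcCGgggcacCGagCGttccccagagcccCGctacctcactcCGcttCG
Glp1r (E12.5 only; chr17:30901617-30901866, plus strand): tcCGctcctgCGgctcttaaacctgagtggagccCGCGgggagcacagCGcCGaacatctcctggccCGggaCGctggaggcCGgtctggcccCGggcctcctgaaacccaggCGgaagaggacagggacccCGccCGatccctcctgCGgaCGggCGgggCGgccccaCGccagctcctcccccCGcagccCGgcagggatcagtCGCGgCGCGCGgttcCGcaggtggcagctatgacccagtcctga
Hoxd10 (FL only; chr2:74691641-74691890, plus strand): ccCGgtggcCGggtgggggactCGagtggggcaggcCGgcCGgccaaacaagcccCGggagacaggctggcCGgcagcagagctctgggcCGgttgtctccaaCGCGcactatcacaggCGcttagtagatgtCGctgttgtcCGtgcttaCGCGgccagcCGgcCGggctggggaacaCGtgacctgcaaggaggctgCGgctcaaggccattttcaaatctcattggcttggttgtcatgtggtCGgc
Hoxa3 (FL only; chr6:52213068-52213317, minus strand): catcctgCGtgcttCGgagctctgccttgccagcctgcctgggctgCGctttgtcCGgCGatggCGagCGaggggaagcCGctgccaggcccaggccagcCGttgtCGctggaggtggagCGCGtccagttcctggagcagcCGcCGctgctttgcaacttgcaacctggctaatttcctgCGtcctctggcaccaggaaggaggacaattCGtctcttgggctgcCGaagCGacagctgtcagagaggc
Sox6 (FL only; chr7:115824711-115824960, minus strand): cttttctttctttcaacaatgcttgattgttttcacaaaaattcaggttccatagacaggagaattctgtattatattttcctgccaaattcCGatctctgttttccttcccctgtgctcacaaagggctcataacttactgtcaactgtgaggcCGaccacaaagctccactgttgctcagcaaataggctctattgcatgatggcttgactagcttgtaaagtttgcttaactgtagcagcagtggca

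The printed bases of Nkx2-3, a homeobox gene, hold 14 CG and those of Emx1, a homeobox gene of the forebrain, hold 30. Those of Glp1r, the receptor for the gut hormone GLP-1, hold 26. On the limb side Hoxd10 holds 20, Hoxa3 18 and Sox6 2. Over full windows the median was 9 CG in both the E12.5-only and the FL-only class, 23 in windows with a peak in every list and 13 in all windows. GGGCGG, searched on both strands, was present in the windows of Nkx2-3, Emx1 and Glp1r and in 46.6% of all windows. CCAAT, on both strands, was present in those of Nkx2-3 and Hoxd10 and in 38.5% of all. Neither was found at Hoxa3 or Sox6. Further motifs were searched on both strands and found in none of the 6: TGANTCA (present in 7.04% of all windows), then TAATTA (4.48%), then TATAAA (12.7%). GGGCGG itself contains one CG, and the other motifs contain none. MC peaks lay on the Nkx2-3 window in 2 of 3 MC lists, on Emx1 in 1, on Glp1r in 2 and on Sox6 in 1, and on neither Hox window in any.

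Distance to genes set replicate 1 apart more than it set the jaw apart. Within 1 kb of an end of a protein-coding gene lay 32.6% of the peaks of E12.5 replicate 1 and 29.9% of those of replicate 2. The FL lists had 28.7%, 28.7% and 29.1%, a mean of 28.8% ± 0.236 (SD, n = 3). Both E12.5 lists were thus above every FL list, by 2.39 percentage points on average (two-sided exact permutation p 0.1, the smallest that 2 against 3 libraries allow). The difference was 1.05 points without replicate 1 and 3.73 without replicate 2 (p 0.25 each, the smallest possible). Direction turned with the number of peaks: it was -1.54 points for the 20000 best peaks of each list (p 0.7) and -1.46 for all deposited peaks (p 0.7). Among the 20000 best peaks, replicate 1 (46.9%) lay below the FL lists (50.2% to 53.1%) and replicate 2 (54.0%) above them.

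Among the 17251 genes with a start window, the excess of replicate 1 was at the far ends and not at the starts. These shares count peaks on the 19 chromosomes with such windows. The near-end share above counts the ends of all 21631 protein-coding genes on 20 chromosomes, so start and far-end shares do not add up to it. Within 1 kb of a gene start lay 23.7% of its peaks, 25.9% of those of replicate 2 and 25.1% to 25.2% of FL peaks. Near the far end alone lay 6.03%, 2.03% and 1.75% to 1.98%. Peaks inside a gene span made up 71.4% in replicate 1, 57.6% in replicate 2 and 57.7% to 58.7% in FL. The median distance to a gene end was 4.63 kb in replicate 1, 10.9 kb in replicate 2 and 11.6 to 12.7 kb in FL (exact p 0.1). Among 6 distance bins the widest gaps were at 1 to 10 kb, with 30.3%, 19% and a mean of 18.4% ± 0.424, and at 50 to 500 kb, with 11.5%, 25.0% and 26.0% ± 0.410 (SD, n = 3; exact permutation p adjusted over the bins 0.2 each). In both bins replicate 2 lay far nearer to the FL lists than to replicate 1. Peak width enters these distances: with every peak set to 500 bp around its summit the near-end shares were 28.5% and 28.9% for the E12.5 lists and 27.7% to 27.9% for FL.

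**Figure D1:**
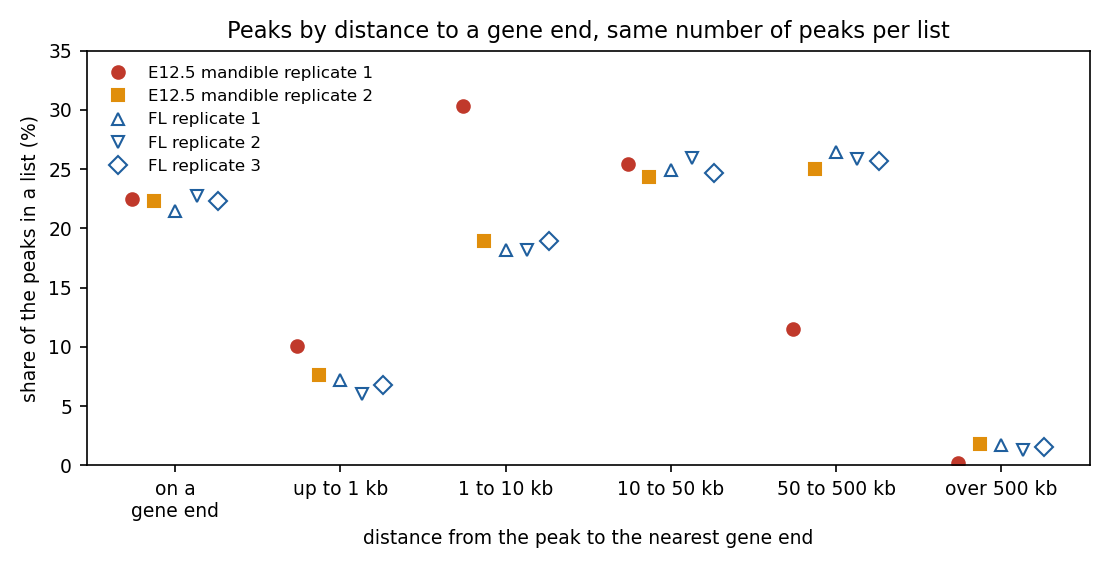
Share of the peaks of each list (vertical axis, %) in 6 bins of distance to the nearest gene end (horizontal axis), for the 47152 best peaks of each of the 5 lists. E12.5 replicate 1 stands away from the other 4 lists at 1 to 10 kb (30.3%) and at 50 to 500 kb (11.5%), and E12.5 replicate 2 lies beside the FL lists in every bin.

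Shared bases gave the same picture. The Jaccard index, the shared part of all bases covered by a pair of lists, was 0.206 between the E12.5 lists and 0.187 to 0.201 between replicate 1 and the FL lists. Replicate 2 shared 0.389, 0.431 and 0.418 with FL replicates 1 to 3, not far below the 0.439 to 0.488 among FL lists. The mean was 0.399 within groups and 0.304 between them (exact permutation over libraries, one-sided, p 0.1, which no split of 2 and 3 libraries can go below). This difference of 0.0948 ranged from 0.0241 to 0.267 when one library was left out. With the MC lists replicate 1 shared 0.207 to 0.260 and replicate 2 0.349 to 0.447.

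**Figure D2:**
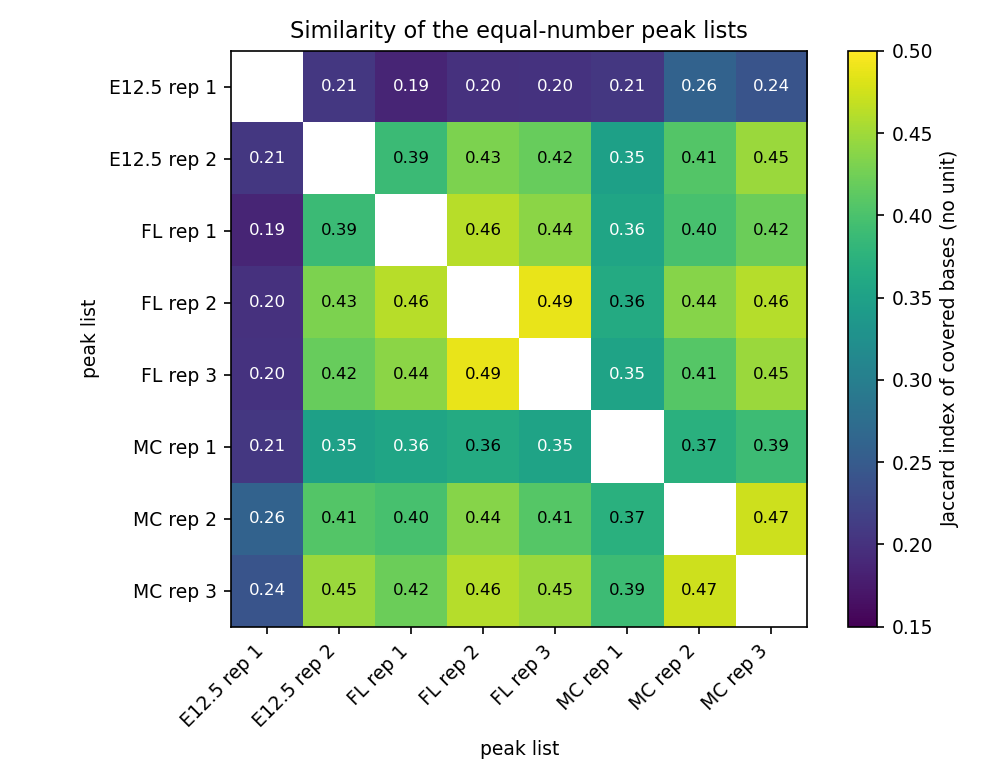
Jaccard index (colour and printed value, no unit) of the bases covered by each pair of the 8 peak lists, 2 of E12.5 mandible, 3 of FL and 3 of MC. The row of E12.5 replicate 1 stays at or below 0.26, while E12.5 replicate 2 reaches 0.43 with FL and 0.45 with MC.

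Gene domains were compared next, to ask which genes carry more open chromatin in the jaw or in the limb. A domain holds the bases of a gene span and those nearer to it than to another gene, up to 1 Mb away, and its value is the kb covered by peaks, scaled to one total per list. No gene of 16212 tested passed limma's threshold in either direction (0% higher and 0% lower at an adjusted p of 0.05). An unadjusted p under 0.05 was reached by 1288 genes, against 810.6 expected if no gene differed, and the smallest adjusted p was 0.594. The spread between the E12.5 lists enters this fit. Replicate 1 alone against FL gave 2357 genes higher and 4935 lower, a fit in which its own spread is taken from the FL lists, and replicate 2 alone gave 0 and 0 (1271 at an unadjusted p under 0.05). With 500 bp peaks 82 genes were called higher and 118 lower, of which 172 had equal values within each group. What follows is therefore a description of levels, and the count of 0 does not show that genes did not differ. Both E12.5 lists were above every FL list for 1541 genes (9.51%) and below for 2592 (16.0%). For replicate 1 alone the shares were 28.7% above and 59.1% below, and for replicate 2 alone 29.8% and 22.2%. Bulk libraries cannot tell fewer cells of a type from less open chromatin per cell.

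Jaw patterning genes, a list of 40 transcription factors and signals of the mandibular arch, had 12 members with both E12.5 lists above every FL list (30.0%, beside 9.51% of all genes) and 6 below (15.0%, beside 16.0%). Jaw domains held a median of 11 merged peak regions, beside 3 for all genes, and the part of this in such shares was not tested. Replicate 2 alone was above FL for 24 of the 40 (60%, beside 29.8%) and below for 7 (17.5%, beside 22.2%). Replicate 1 alone was above for 14 (35%, beside 28.7%) and below for 21 (52.5%, beside 59.1%). The median log2 difference of the list was -0.04, beside -0.25 over all genes tested. The replicate 2 share above FL was not particular to jaw genes. On the lists used below it was 66.7% for tendon (6 of 9), 60% for neuron, 50% for epithelial and 41.7% for reference genes. For Hox genes it was 0%, for cartilage genes 16.0% and for endothelial genes 18.2%. The other lists had 33.3% to 44.4%. Among the 12 were Dlx1, Dlx3, Hand1, Gsc, Pitx1, Lhx6, Barx1, Msx1, Alx4, Foxf1 and Nkx2-3. The 6 were Foxc1, Foxd1, Ednra, Prrx1, Tfap2a and Runx2.

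Pitx1, a homeobox factor of the lower jaw and hindlimb (chr13:55825044-55836190), covered 14.0 and 5.01 kb in E12.5 replicates 1 and 2 and 2.52, 0.951 and 0.630 kb in FL. Both E12.5 lists were above the FL lists by a wide gap, with a log2 difference of 2.39 ± 0.622 (limma SE; adjusted p 0.594). Gsc, a homeobox factor of jaw and middle ear (chr12:104471209-104473236), covered 4.01 and 5.19 kb against 2.44, 0.985 and 0.752 kb (log2 difference 1.52 ± 0.493, adjusted p 0.594). The E12.5 lists lay closer together on Gsc than on Pitx1, and they also lay close together on other jaw genes such as Msx1 and Barx1. In MC, Pitx1 covered 3.85 to 7.83 kb and Gsc 5.64 to 8.56 kb.

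Alx4, a factor of facial mesenchyme, covered 16.2 and 4.35 kb at E12.5 and 1.86, 1.77 and 4.08 kb in FL, so replicate 2 cleared the highest FL list only narrowly. Msx1, which holds facial mesenchyme in an immature state, covered 10.7 and 9.96 kb against 2.15, 6.15 and 6.21 kb, with the E12.5 lists close together. Lhx6, a LIM factor of the oral side of the jaw, covered 4.55 and 3.08 kb against 2.02, 2.07 and 3.05 kb, where replicate 2 and FL replicate 3 were nearly equal. Barx1, of the molar side, covered 8.53 and 7.15 kb against 5.28, 4.18 and 3.71 kb. With the 20000 best peaks the sign of Gsc and Barx1 turned (log2 difference -0.03 and -0.85).

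Dlx6 and Hand2, both central to lower jaw identity, separated the E12.5 lists from each other. Dlx6 covered 1.72 kb in replicate 1 and 11.1 kb in replicate 2, with FL at 3.69, 3.31 and 3.37 kb and MC at 5.93 to 8.89 kb. Replicate 1 was thus the lowest of the 8 lists and replicate 2 the highest. Dlx5, its neighbour, covered 1.98 and 6.18 kb against 4.39, 2.23 and 5.14 kb, again with replicate 1 lowest and replicate 2 highest of the 5. Hand2 covered 1.04 and 14.6 kb against 15.8, 14.53 and 18 kb, so replicate 2 lay within the FL lists. Lhx8, a LIM factor paired with Lhx6, covered 1.59 and 10.5 kb against 3.71, 5.35 and 5.94 kb. For Six2 and Pax9 both E12.5 lists lay within FL (log2 differences -0.07 and 0.23), and for Twist1 they lay on opposite sides of it (-0.27).

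Among the 6 jaw genes below FL, Foxc1, a forkhead factor of head mesenchyme, covered 0.895 and 4.26 kb against 10.7, 9.06 and 5.81 kb. Foxd1 covered 0.648 and 2.72 kb against 5.90, 5.16 and 4.84 kb, and Ednra, the endothelin receptor, 2.83 and 6.01 kb against 10.1, 9.21 and 10.6 kb. For all 3 both E12.5 lists lay under the FL lists, with replicate 2 the nearer one. Runx2, the master factor of bone cells, covered 3.08 and 9.64 kb against 11, 10.4 and 11.6 kb.

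**Figure D3:**
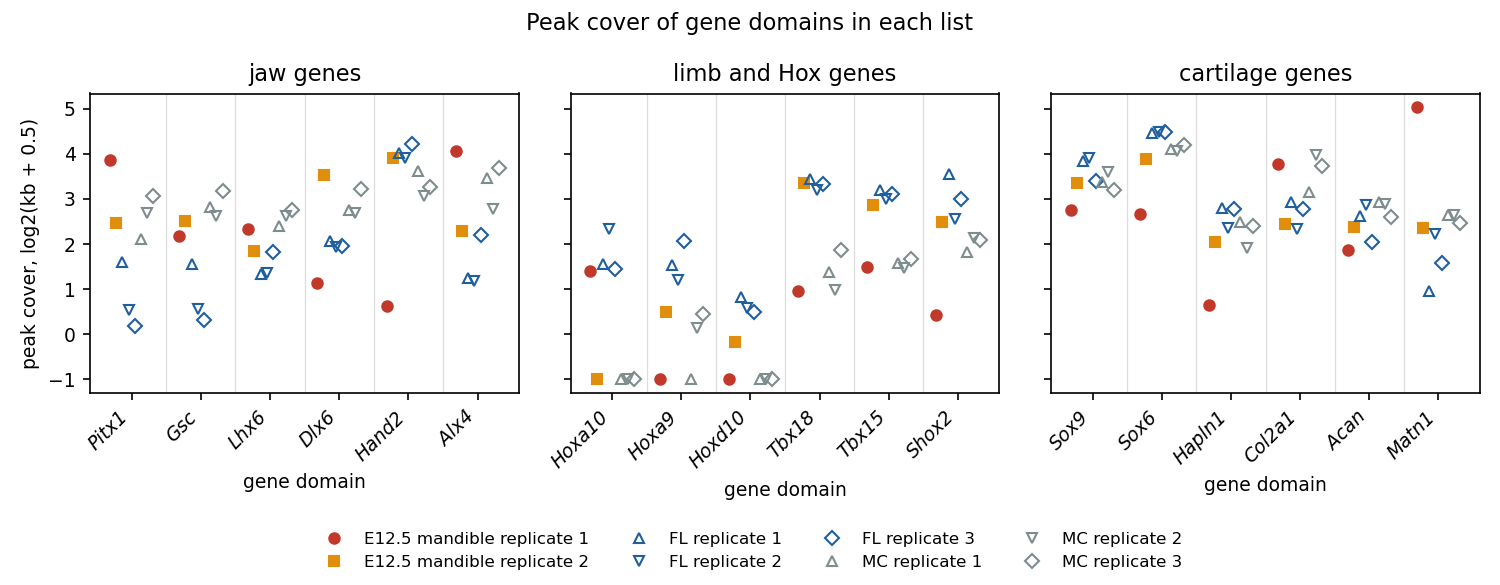
Peak cover of 18 gene domains in each of the 8 lists, as log2(kb + 0.5) on the vertical axis, grouped as jaw, limb and Hox, and cartilage genes on the horizontal axis. Pitx1 and Gsc have both E12.5 lists above the FL lists, Hoxa9 and Hoxd10 have both below them, and Dlx6, Hand2 and Tbx18 have E12.5 replicate 1 far below replicate 2.

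Hox genes lay below FL more often than genes at large in replicate 2 and in both lists together, but not in replicate 1. Of 39, 20 had enough cover to be tested, and for none were both E12.5 lists above every FL list, while 6 were below (30.0% of those tested, beside 16.0% of all genes). These were Hoxa3, Hoxa7, Hoxa9, Hoxa10, Hoxc6 and Hoxd10. Replicate 2 alone was above FL for 0 of 20 and below for 8 (40%, beside 22.2% of all genes). Replicate 1 alone was above for 3 (15.0%, beside 28.7%) and below for 10 (50.0%, beside 59.1%), and its median log2 difference over Hox genes was -0.55, beside -0.61 over all genes. Hoxc9, which had too little cover to be tested, went the other way, with 0.649 and 0.636 kb at E12.5 and every FL list at 0. Hoxa9, which acts in the proximal limb (chr6:52223097-52227370), covered 0 and 0.905 kb at E12.5 and 2.40, 1.81 and 3.68 kb in FL (log2 difference -1.86 ± 0.522, limma adjusted p 0.594). Hoxd10, whose start is printed above, covered 0 and 0.386 kb against 1.26, 1.01 and 0.905 kb. In MC, Hoxa9 covered 0 to 0.858 kb and Hoxd10 was listed at 0 in every list.

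Hoxa10, of the same limb segment, split the E12.5 lists. It covered 2.16 kb in replicate 1, just under the lowest FL list, and was listed at 0 in replicate 2, with FL at 2.46, 4.51 and 2.21 kb and every MC list at 0. Hoxa11, of the forearm, covered 1.06 and 0 kb against 0.645, 1.64 and 1.42 kb. Hoxd11, its partner, covered 1.53 and 0 kb against 1.67, 1.81 and 1.36 kb. For both, replicate 1 lay among the FL lists and replicate 2 below them. Hoxd13, of the digits, covered 0 and 0.901 kb and overlapped FL (0.165 to 2.57 kb), and Hoxa13 was under the limit for testing. Summed over the 16 genes of paralog groups 9 to 13, cover was 10.9 kb in replicate 1, 4.60 kb in replicate 2, 9.57, 17.5 and 13.4 kb in FL and 0.545 to 4.63 kb in MC. Replicate 1 thus lay within the range of FL on this sum, and replicate 2 lay below it.

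Limb patterning genes outside the Hox clusters did not lie on the limb side as a list. Of 35, 5 had both E12.5 lists above every FL list (14.3%, beside 9.51% of all genes) and 3 below (8.57%, beside 16.0%), and the median log2 difference was 0.16. Replicate 2 alone was above for 15 (42.9%, beside 29.8%) and below for 4 (11.4%, beside 22.2%), and replicate 1 alone above for 14 (40%, beside 28.7%) and below for 16 (45.7%, beside 59.1%). Those above were Tbx2, Fgf8, Zbtb16, Msx1 and Cyp26b1, and those below Tbx15, Shox2 and Bmp4. Msx1 and Msx2 are also on the jaw list, and many of these genes act in the face as well.

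Fgf8, a growth factor of the oral ectoderm and of the limb ridge, covered 4.47 and 2.55 kb at E12.5, was listed at 0 in FL replicates 1 and 2 and covered 0.496 kb in FL replicate 3. It had one of the smallest p-values of all genes (log2 difference 2.63 ± 0.480, limma adjusted p 0.594). Shox2, of the proximal limb, covered 0.848 and 5.15 kb against 11.2, 5.36 and 7.50 kb, where replicate 2 lay just under FL replicate 2. Tbx15, of the proximal skeleton, covered 2.33 and 6.78 kb against 8.74, 7.50 and 8.14 kb, with MC at 2.26 to 2.67 kb. Replicate 1 was near MC for this gene and replicate 2 nearer to FL.

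A pair of further T-box genes split the E12.5 lists as well. Tbx18, of limb and tooth mesenchyme, covered 1.43 kb in replicate 1 and 9.66 kb in replicate 2, with FL at 10.4, 8.65 and 9.62 kb and MC at 1.48 to 3.12 kb, so replicate 2 lay inside the FL range. Tbx5, which starts the forelimb, went the other way: 6.43 kb in replicate 1, within FL (4.89, 5.24 and 6.93 kb), and 0.651 kb in replicate 2, below FL and below MC (1.36 to 3.13 kb). Meis2 covered 1.37 and 12.7 kb against 10.7, 6.67 and 9.86 kb, Emx2 2.23 and 6.49 kb against 4.77, 4.59 and 5.14 kb, and Lmx1b 42.3 and 5.40 kb against 3.76, 10.2 and 9.38 kb. None of these had both E12.5 lists on one side of FL.

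Cartilage genes, from the Sox factors to the matrix proteins, had 9 of 25 tested members with both E12.5 lists below every FL list (36.0%, beside 16.0% of all genes) and 3 above (12%, beside 9.51%). Replicate 2 alone was below FL for 13 (52.0%, beside 22.2%) and above for 4 (16.0%, beside 29.8%). Replicate 1 alone was below for 13 too, a smaller share than that of all genes (52.0%, beside 59.1%), and above for 10 (40%, beside 28.7%). The 9 were Sox9, Sox5, Sox6, Col11a1, Matn3, Hapln1, Cnmd, Wwp2 and Trps1, and the 3 were Col9a2, Matn1 and Fgfr3. All 3 Sox factors that direct cartilage formation were thus among those below.

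Sox9 (chr11:112782210-112787757), the first of them to act, covered 6.21 and 9.75 kb at E12.5 and 13.9, 14.54 and 10.1 kb in FL, with replicate 2 just under FL replicate 3 (log2 difference -0.67 ± 0.528, limma adjusted p 0.606). Sox5 covered 3.18 and 18.2 kb against 21.3, 19.9 and 24.4 kb. Sox6 covered 5.82 and 14.3 kb against 21.6, 21.8 and 22.0 kb, with MC at 16.3 to 17.7 kb, between replicate 2 and FL (log2 difference -1.20 ± 0.577, adjusted p 0.594). Hapln1, which links aggrecan to hyaluronan, covered 1.08 and 3.65 kb against 6.47, 4.61 and 6.39 kb. Wwp2, a ubiquitin ligase gene that hosts a cartilage microRNA, covered 3.51 and 5.08 kb against 9.16, 7.92 and 6.08 kb.

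Among the matrix genes, Col11a1 was below FL and Col9a2 above it in both E12.5 lists, while Col2a1 and Col11a2 differed between the replicates. Col2a1, the main cartilage collagen, covered 13.3 kb in replicate 1, above FL (7.10, 4.54 and 6.39 kb), and 4.98 kb in replicate 2, within FL. Col11a2 covered 16.1 and 0.799 kb against 2.79, 2.10 and 2.0 kb, so the E12.5 lists lay on opposite sides. Col9a1 covered 1.01 and 5.32 kb against 6.22, 6.26 and 4.81 kb, and Acan, the aggrecan gene, 3.13 and 4.71 kb against 5.69, 6.77 and 3.66 kb. Matn1, a matrilin of mature cartilage, covered 32.3 and 4.61 kb against 1.45, 4.20 and 2.47 kb. All 6 cartilage markers had cover in every list, and their sum was 72 kb in replicate 1, 30.2 kb in replicate 2 and 29.4 to 38.4 kb in FL.

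**Figure D4:**
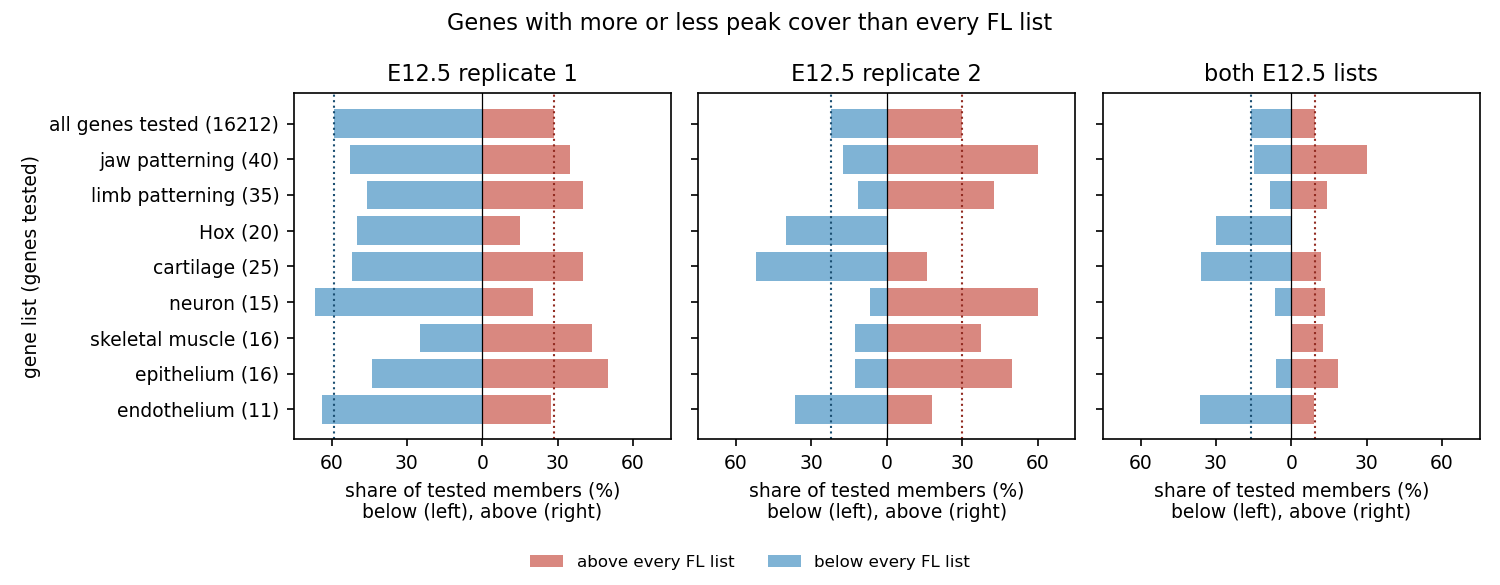
Share of the tested members of each gene list (horizontal axis, %) whose cover was below (left) or above (right) every FL list, for E12.5 replicate 1, replicate 2 and both, with the shares of all 16212 genes as dotted lines. With both lists, jaw patterning members were above FL in 30.0% of cases against 9.51% of all genes, and cartilage members below in 36.0% against 16.0%.

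Other cell types could enter a whole mandibular process, so their marker genes were summed in each list. Skeletal muscle markers (6 genes) covered 40.9 kb in replicate 1, 12.6 kb in replicate 2 and 4.04 to 13.4 kb in FL, with Myf5 at 0 in replicate 1 and all 6 covered in replicate 2. Pax7 alone covered 30.0 kb in replicate 1, 2.21 kb in replicate 2 and 6.28, 0.580 and 0.491 kb in FL, so the gap between the E12.5 sums rests mostly on it. Single genes also weighed in other replicate 1 sums below, with Sox10 at 12.7 kb for glia and Grhl3 at 13.4 kb for epithelium. Schwann and neural crest glia markers (5) covered 16.6, 7.44 and 4.63 to 6.29 kb. Both E12.5 lists thus lay above FL for glia. Neuron markers (6) covered 9.22, 23.1 and 12.3 to 16.5 kb, with Stmn2 and Neurod1 at 0 in replicate 1 and Elavl3 at 0 in replicate 2 and in 2 FL lists. Epithelial markers (7) covered 21.2, 14.1 and 10.7 to 16.2 kb; Trp63 and Cdh1 were at 0 in replicate 1, and Krt5 and Krt14 at 0 in all FL lists. Krt5 and Krt14, keratins of the basal epithelium, thus had cover in the E12.5 lists and none in FL. Trp63, the master factor of that epithelium, went the other way, with 0 and 0.429 kb against 2.80, 1.82 and 1.98 kb. Endothelial markers (6) covered 25.0, 27.3 and 34.1 to 37.2 kb, with Tek at 0 in replicate 1. Blood markers (5) covered 15.6, 23.2 and 19.6 to 26.6 kb, with Gata1 at 0 in all 5 lists, and tendon markers (3) 4.80, 10.7 and 7.43 to 10.4 kb, with Tnmd at 0 in all 5. The E12.5 lists thus lay on opposite sides of FL for neuron and tendon sums, and both lay below FL for endothelium. The part of these cells in the gene results was not tested.

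By counts over the longer lists, both E12.5 lists were below FL for 4 of 11 endothelial genes (Cdh5, Emcn, Erg and Kdr) and above for Sox18. These are 36.4% and 9.09%, beside 16.0% and 9.51% of all genes, which are the shares to set the other counts of both lists against. Neuronal genes were above FL in replicate 2 for 9 of 15 (60%, beside 29.8% of all genes) and below in replicate 1 for 10 of 15 (66.7%, near the 59.1% of all genes). Epithelial genes gave 3 of 16 above (18.8%; Cldn4, Krt5 and Sfn) and 1 below (6.25%; Trp63), and muscle genes 2 of 16 above (Acta1 and Myod1) and 0 below. Of 15 genes of hedgehog signalling, Foxf1, Nkx2-3 and Smo were above and Cdon, Gas1 and Hhip below, 20.0% each. Gas1, a hedgehog co-receptor, covered 4.84 and 17.6 kb against 20.5, 22.3 and 23.2 kb. Of 13 genes of hypertrophy and bone, Alpl, Smpd3 and Sp7 were above (23.1%) and Runx2 and Spp1 below (15.4%). For blood (9 genes) both counts were 0, for tendon (9) 0 and 1, for glia (9) 2 and 0, and for reference genes (12) 0 and 1.

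Genes of smallest p included several that are not on any list. On the E12.5 side they were Plekhg6, Glp1r, Xkr7, Rgs14, Noxa1, Fgf8, Emx1 and Sult4a1, and on the FL side Dhrs9, H60c, Fmo6, Oit3, Cd96, Gm41844, Themis3 and Evx2. Glp1r covered 12.53 and 9.99 kb at E12.5 against 1.71, 0.709 and 0.845 kb in FL, with MC at 0 to 1.38 kb, so the E12.5 lists stood above all 6 E14.5 lists (log2 difference 2.93 ± 0.474, limma adjusted p 0.594). Emx1 covered 6.70 and 4.14 kb against 0.461, 0 and 0.864 kb, and Xkr7 6.04 and 3.55 kb against 0, 0.405 and 0.592 kb. Evx2, the neighbour of Hoxd13 at the end of the Hoxd cluster, was listed at 0 in both E12.5 lists and covered 1.22, 2.53 and 1.76 kb in FL. Dhrs9, a retinol dehydrogenase gene, was listed at 0 in both and covered 2.28, 2.34 and 1.63 kb. None of the 16 passed the threshold.

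Single regions were then sorted by the lists that call them. Peaks of the 5 lists merged into 100625 regions, of which 14598 were called in every list. E12.5-only regions, called in both E12.5 lists and no FL list, numbered 1151 (1.14%), and FL-only regions, called in all FL lists and no E12.5 list, 4295 (4.27%). With one E12.5 list the E12.5-only class is larger by its construction: replicate 1 against FL gave 24387 of 91266 regions (26.7%) and replicate 2 gave 11387 of 79392 (14.3%). The FL-only class was 11471 (12.6%) against replicate 1 and 4865 (6.13%) against replicate 2. It also grew to 6768 without FL replicate 1 and to 6748 without FL replicate 3.

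E12.5-only regions lay nearer to genes than FL-only regions did. Near a gene end lay 18.8% of the E12.5-only, 3.66% of the FL-only and 66.9% of the regions in every list, beside 18.5% of all regions. Their median distances to a gene end were 10.3 and 49.8 kb, and 63.9% and 46.4% lay inside a gene span. The contrast in median distance was seen with replicate 1 and hardly with replicate 2, and the contrast in near-end share with neither alone. With one E12.5 list set against FL, whatever the other held, E12.5-only regions of replicate 1 lay at a median of 8.20 kb from a gene end. Regions that FL had and replicate 1 lacked lay at 30.6 kb. For replicate 2 these medians were 38.3 and 42.7 kb. The near-end shares of these 2 classes were 15.02% and 15.04% with replicate 1 and 5.55% and 5.24% with replicate 2.

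The MC lists, which took no part in sorting the regions, had a peak on 29.4%, 38.5% and 38.4% of E12.5-only regions and on 41.3%, 42.8% and 50.6% of FL-only regions. Over all regions the shares were 33.6%, 36.7% and 39.3%. No MC list had a peak on 35.2% of the E12.5-only and 33.4% of the FL-only regions. Where a single E12.5 list was set against FL, MC lists met 9.76% to 14.1% of its E12.5-only regions for replicate 1 and 12.8% to 20.5% for replicate 2. The MC replicate 2 list held 43205 peaks, fewer than the number taken from the others.

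H3K27ac, a histone mark of active promoters and enhancers, was available as 1 pooled list per E14.5 tissue, covering 408 Mb in MC and 454 Mb in FL. Of 935 E12.5-only regions over 1 kb from a gene end, 69.8% (95% Wilson interval 66.8% to 72.7%, counting error only) met MC and 67.1% (64.0% to 70.0%) met FL H3K27ac. Of 4138 such FL-only regions, 59.4% (57.9% to 60.9%) met MC and 60.3% (58.8% to 61.8%) met FL H3K27ac. All distal regions had 57.4% and 57.1%. Among E12.5-only distal regions 90 met the MC list alone and 64 the FL list alone, and among FL-only ones 359 and 397. Each tissue has 1 pooled list, so this difference has no replicate check. Single lists differed: with one E12.5 list set against FL, distal E12.5-only regions of replicate 1 had 73.4% and 75.4%, and those of replicate 2 had 36.2% and 35.6%. Median widths of these classes also differed, at 1361 bp for E12.5-only, 960 bp for FL-only, 1144 bp with replicate 1 against FL and 541 bp with replicate 2 against FL, and a wider region meets a list more easily.

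**Figure D5:**
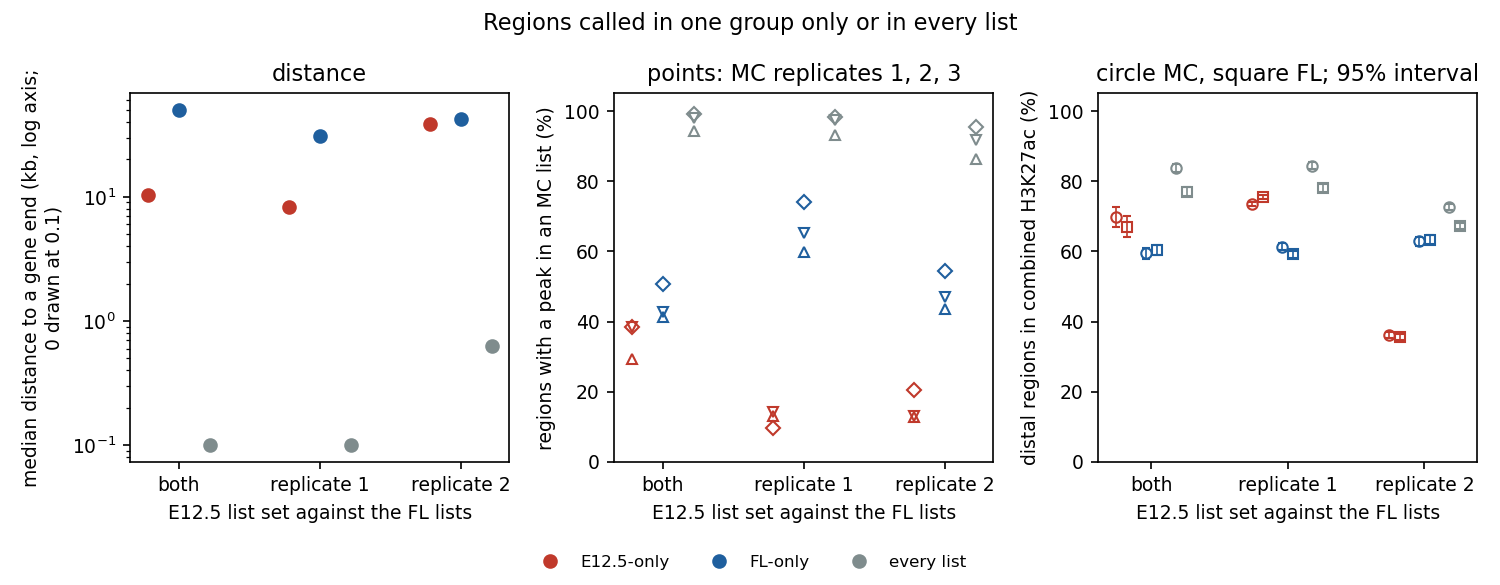
For regions of one group only or in every list, the median distance to a gene end (left, kb, log axis), the share with a peak in each MC list (middle, %) and the share of distal regions in the pooled H3K27ac lists (right, %, with 95% Wilson intervals), when both or one of the E12.5 lists are set against FL. E12.5-only regions of replicate 1 lie at 8.20 kb and those of replicate 2 at 38.3 kb, and their H3K27ac shares in MC are 73.4% and 36.2%.

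By gene domain, E12.5-only regions fell in 14 of 40 jaw patterning genes (35%, beside 5.75% of all 16731 domains with a region) and FL-only regions in 13 (32.5%, beside 15.4%). These domains are rich in regions, with a median of 11 beside 3 over all genes, so shares of regions say more. E12.5-only regions made up 19 of 519 regions in jaw domains (3.66%, beside 1.15% of all regions in domains), and FL-only regions 25 (4.82%, beside 4.26%). In limb patterning domains the shares were 1.55% and 4.96% of 645 regions, and in cartilage domains 0.862% and 8.62% of 348. FL-only shares above the 4.26% of all regions were also found in domains of endothelial (7.38%), tendon (6.76%), hedgehog (6.44%), blood (6.30%) and neuron (6.25%) genes. E12.5-only shares above 1.15% were also found in domains of blood (3.15%), hedgehog (2.52%), endothelial (2.46%), glia (2.41%), and hypertrophy and bone (2.19%) genes. Those of epithelial, neuron, skeletal muscle, tendon and reference genes lay below it. The part of these cell types in the cartilage and jaw shares was not tested. Hox domains held 71 regions, of which 0 were E12.5-only and 3 (4.23%) FL-only. Replicate 2 alone gave 23.2% of 406 regions in jaw domains as E12.5-only, beside 14.3% of all, and 12.46% of 297 in cartilage domains as FL-only, beside 6.13%. Replicate 1 alone gave 31.4% of 452 in jaw domains as E12.5-only, beside 26.8%, and 17.8% of 314 in cartilage domains as FL-only, beside 12.6%. Such E12.5-only excesses were not particular to jaw domains. With replicate 2 the share was 29.8% in neuron, 21.1% in glia, 20.8% in tendon and 19.4% in epithelial domains. Hox, cartilage, endothelial and reference domains lay below 14.3%. With replicate 1 it was 51.7% in skeletal muscle, 43.2% in glia and 34.5% in epithelial domains. Limb, Hox, cartilage, endothelial, neuron, tendon and reference domains lay below 26.8%.

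E12.5-only regions in jaw domains included one beside Dlx6 (chr6:6859672-6861926, 1.41 kb from its nearest end), with a peak in 3 MC lists and H3K27ac in MC alone. A region 72.1 kb from Gsc (chr12:104545367-104546811) had 3 MC lists and both H3K27ac lists. Alx4 had one inside the gene (chr2:93648564-93650108, 3 MC lists, H3K27ac in both tissues) and one 44.7 kb away (chr2:93596633-93597763, 3 MC lists, H3K27ac in FL alone). A region 45.2 kb from Pitx1 (chr13:55881361-55882291) had 1 MC list and H3K27ac in MC alone. Other E12.5-only regions, by Pax9 and Barx1, met no H3K27ac, and one 48.8 kb from Six2 (chr17:85737036-85737676) met neither MC peaks nor H3K27ac. Jaw domains held FL-only regions too. One lay on an end of Alx4 (chr2:93641625-93643667, 3 MC lists, H3K27ac in both tissues), and others lay in the domains of Hand2, Six2, Barx1, Pax9 and Runx2. The best-ranked E12.5-only regions lay 61.2 kb from Cd82, 4.38 kb from Ext2, in Fam83h, in Glp1r and 11.7 kb from Ccdc85c. The Cd82 region (chr2:93524165-93526868) had rank 9631 in its weaker E12.5 list. It and the Ext2 region (chr2:93689933-93691249) lay on either side of Alx4 (chr2:93642434-93681341). The Glp1r region (chr17:30900589-30903383) covers the start printed above.

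The best-ranked FL-only region (chr17:59373182-59375003, 360 kb from Nudt12) was within the top 2937 peaks of every FL list. The next lay by Gli3, the hedgehog effector of limb and face (chr13:15740853-15743399), in Srgap3, in Tspan9 and by Fmo6, and all 5 had peaks in 3 MC lists. In the limb genes, FL-only regions without any MC peak lay in Hoxa9 (chr6:52225075-52227013), in Hoxd10 (chr2:74690979-74692114, over the printed start), in Tbx5 (chr5:119866196-119867516), 320 kb from Shox2 (chr3:66649969-66651528), 41.7 kb from Tbx18 (chr9:87772974-87775250) and 104.7 kb from Tbx15 (chr3:99458999-99459805). Those in Hoxa9, Hoxd10 and Tbx5 and the one by Shox2 met H3K27ac in FL alone, and the ones by Tbx18 and Tbx15 met none. A further FL-only region, 31.0 kb from Tbx5 (chr5:119916254-119917141), had peaks in 3 MC lists and no H3K27ac. FL-only regions without any MC peak were not confined to limb genes. They also lay in the domains of Hand2, Six2, Runx2, Sox9 and Sox5.

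The 3 Sox genes held 13 of the 30 FL-only regions in cartilage domains. The share of all regions that these 3 domains hold was not counted, and whether the 13 follow the size of the domains was not tested. In the Sox9 domain 5 lay 83.6 to 483 kb from the gene, 4 of them with H3K27ac in both tissues and 4 with a peak in at least 1 MC list. Sox6 had 5, among them the internal start printed above (chr7:115824270-115826113, 1 MC list, H3K27ac in both tissues), and Sox5 had 3. Hapln1 had one inside the gene (chr13:89542181-89543370) and Wwp2 had 2, all with peaks in 3 MC lists. These cartilage regions without an E12.5 peak were therefore in part open in E14.5 jaw cartilage as well.

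The genes with the most regions differed by list. E12.5-only regions were most frequent in Glis1 (6) and Prdm16 (5), and FL-only regions in Rad51b (14), Auts2 and Robo1 (10 each). Replicate 1 against FL gave 85 in Rbfox3, 65 in Zmiz1 and 63 each in Arhgef10l, Igsf21 and Sorcs2. Replicate 2 against FL gave 19 each in Dnah8 and Robo1 and 16 in Ptprd. They are singled out here by their values, and their spans run from 152 to 2271 kb.

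Gene starts showed the same gap between the E12.5 lists. A peak lay on 54.4% of the 300-base windows in replicate 1, 59.1% in replicate 2 and 57.2% to 59.7% in FL. Replicate 1 lacked 1434 windows (6.82%) that all other 4 lists had, and replicate 2 lacked 104 (0.495%). Replicate 1 alone had 706 windows (3.36%), with a median of 6 CG, and replicate 2 alone 164, with 7. Those of replicate 1 included Lhx6, Lmx1b, Tbx4, Matn1, Matn4, Alpl, Foxd3, Nhlh1, Cyp26b1 and the muscle genes Acta1 and Mybph. Of E12.5-only windows 29.4%, 50.6% and 54.1% had a peak in MC replicates 1 to 3, and of FL-only windows 55.9%, 72.5% and 72.5%.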

How the data were processed

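ATAC-seq peaks were deposited per library, and H3K27ac intervals as 1 combined list per tissue. Per the submitters' processing notes the tools were Trim Galore, Bowtie2, SAMtools, Genrich and SEACR on mm10; versions are not given in the sources used here. The authors' peak score (no deposited score under 200) ranked the peaks, and their −log10 p ranked them in an alternative. The deposited summit offset placed the 500 bp windows. The deposited H3K27ac signal intervals were used as positions only.

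From each list the 47152 peaks of highest score on autosomes and X were taken (43205 in MC replicate 2). Each covered base went to the smallest of 21631 RefSeq protein-coding gene spans (GRCm38.p6) holding it, or else to the nearest gene within 1 Mb. Cover was scaled to one total per list, and log2(kb + 0.5) was compared for genes with a mean of at least 0.3 kb by limma 3.58.1 (trend, robust; R 4.3.3) with Benjamini-Hochberg adjusted p at 0.05. Fold changes on this scale understate those of genes with little cover. Regions were merged peaks, called in a list by 1 bp of overlap. Shares and Jaccard indices were compared by exact permutation of libraries (scipy 1.17.1). Tested on simulated data, the fit recovered planted differences at a smaller spread than the observed one and none at the observed spread.

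Alternatives were other numbers, ranks and widths of peaks, other pseudocounts, domains and filters, a fit on all 8 ATAC libraries, and each library left out. The members and gene lists were chosen with earlier results of these data known. Named genes were those marked in the jaw, limb, Hox and cartilage lists and the 8 of smallest p in each direction, and other list members are named by the side of FL on which they lay. Named regions were the 5 of best worst rank per class and those in domains of marked genes. Other assays of the series were not used here. Some list members are not reported here.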

Additional observations from a re-analysis of the deposited data

How the results depend on the processing

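The counts of genes called by limma depended on the way peaks were measured. With 500 bp around each summit 82 genes were called higher and 118 lower, and with peaks per gene 159 and 153; 172 of these 200 and 294 of these 312 had equal values within each group. Without one library the called genes ranged from 0 to 2357 higher and from 0 to 4935 lower, all of them in the fit without E12.5 replicate 2. Genes with both E12.5 lists above every FL list ranged from 2007 to 4745 and those below from 3411 to 9586 without one library, and those below were 1662 with 500 bp peaks and 1351 with peaks per gene. E12.5-only regions numbered 2947 with all peaks, 356 with the 20000 best peaks and 1397 to 24387 without one library. FL-only regions numbered 1485 with the 20000 best peaks and 4865 to 11471 without one library. Regions in every list numbered 7176 when a region counted only with at least 0.5 of its bases covered and 7800 with the 20000 best peaks. The share near a gene end turned to -1.46 points with all peaks and -1.54 with the 20000 best, and was 1.05 to 3.73 without one library. Part of each change with fewer libraries is by construction, and the cause of the other changes was not tested.

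Among the named genes 780 of the values under other settings kept direction and side of the threshold, 51 passed it and 29 changed sign. Log2 differences turned to -0.85 for Barx1, -0.033 for Gsc, 0.071 for Dlx5, 0.18 for Emx2 and 0.26 for Hoxd11 with the 20000 best peaks. They turned to 0.078 for Six2 and 0.35 for Twist1 with 500 bp peaks, to 0.082 and 0.39 with peaks per gene, and to 0.12 for Six2 with domains of 100 kb. Without one library they ranged from -1.06 to 2.59 for Col11a2, -0.23 to 1.10 for Col2a1, -0.77 to 0.65 for Dlx5, -0.84 to 1.53 for Dlx6 and -0.97 to 0.39 for Emx2. They ranged from -1.48 to 0.026 for Hoxd13, -1.38 to 1.01 for Lhx8, -0.38 to 2.48 for Lmx1b, -2.34 to 0.48 for Meis2 and -0.20 to 0.51 for Pax9. For Six2 the range was -0.38 to 0.24, for Tbx18 -2.39 to 0.020, for Tbx5 -2.35 to 0.18 and for Twist1 -0.83 to 0.27.

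With the replicate number as a replicate block limma called 8 genes higher and 0 lower (712 at an unadjusted p under 0.05), and Dlx5 turned to 0.16. The numbers are shared only by replicates 1 and 2, whose deviations correlated at -0.07 in both pairs. With 2 E12.5 lists the deviations from their mean mirror each other, so the pairs are not separate checks. These values do not settle whether the numbers pair libraries, and the labels do not say. Peak lists hold no read counts, so depth and the counting error of each peak are unknown. With 2 against 3 libraries no exact permutation p could fall under 0.1.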
